A study of Homo sapiens with 6 samples.

Results

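Regulators of G protein signalling (RGS proteins) were followed in the human monocytic leukaemia line THP-1, with and without differentiation by PMA (phorbol myristate acetate). The genes were taken by symbol and are RGS1, RGS2, RGS3, RGS10, RGS12, RGS14, RGS16, RGS18, RGS19 and RGS20, 10 of the 18417 genes tested. Each of the 10 was read by a single probe set (the probes that together report on a transcript) carrying that symbol alone. The unstimulated group holds 3 arrays of THP-1 cells that received no PMA. The PMA group holds 3 arrays of THP-1 cells given 200 nM PMA for 3 days and then kept without it for 3 days, so RNA was taken after the drug had been withdrawn. All cells came from the same line and were grown in RPMI medium with serum, glutamate and mercaptoethanol. The labels do not say for how long the unstimulated cells were kept, nor whether replicates were separate cultures. P-values here rest on the spread among 6 arrays and may reflect technical variation alone, and precision is limited by how few arrays there are.

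G protein-coupled receptors act through heterotrimeric G proteins, whose alpha subunit is active while it holds GTP. RGS proteins bind the active alpha subunit through a shared RGS domain and speed up GTP hydrolysis, which ends the signal. Their transcripts are regulated in leukocytes, where they set how strongly cells respond to chemoattractants and other ligands of such receptors. The family is divided by sequence into subfamilies. The R4 subfamily (here RGS1, RGS2, RGS3, RGS16 and RGS18) consists mostly of small proteins with little beyond the RGS domain. The R12 subfamily (RGS10, RGS12 and RGS14) includes both a small protein and large scaffolds, and the RZ subfamily (RGS19 and RGS20) carries a cysteine string near its amino terminus. PMA activates protein kinase C and drives THP-1 cells towards a macrophage-like state.

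The arrays held log2 values, with lower quartiles between 4.46 and 4.57 and medians between 6.10 and 6.25. Values below an array's lower quartile are called dim here, because the table gives no detection call. Unstimulated replicate 1 and PMA replicate 3 had the lowest mean correlation with their own group (0.9892 and 0.9888, against 0.9908 to 0.9924 for the others), and results that turn on them are given with and without them. Of 10 monocytic markers measured, 5 rose and 1 fell (lowest log2 fold change in this list −2.76), and of 8 macrophage markers 7 rose and none fell. Over all genes tested 13.2% rose and 13.2% fell, and these and the next lists, which are short, are to be read against those shares. Of the markers of other cells, none of 6 T cell, 2 erythroid and 4 epithelial genes passed in limma (0 at an unadjusted p of 0.05), and of 4 B cell genes 1 fell. In the fibroblast list the receptor PDGFRA rose (log2 fold change 3.15) while the 3 collagen genes did not pass.

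Of the 10 RGS genes, 4 rose and 1 fell with PMA at an adjusted p of 0.05 in limma with Benjamini-Hochberg adjustment over all genes. Over all genes tested, 13.2% rose and 13.2% fell. RGS1, RGS16, RGS10 and RGS3 were the genes that rose, and RGS18 was the gene that fell. With a change of at least 2-fold asked for as well, 2 of the 10 were higher (5.17% of all genes) and 1 was lower (3.2% of all genes). The groups did not overlap for 8 of the 10 genes, 5 with PMA above and 3 with PMA below, against 41.2% of all genes. For RGS12 and RGS14, which did not pass, the nearest values almost met (6.264 with PMA and 6.265 without, and 7.888 and 7.922). The median log2 fold change of the 10 was 0.38, against −0.03 for all genes. Over all 22 canonical RGS genes, the 10 among them, it was −0.03. Rises made up 50.1% of all called genes, but 61.8% when arrays were centred on their medians and 40.8% when every probe set was fitted. In all of these settings 4 RGS genes rose and 1 fell.

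**Figure D1:**
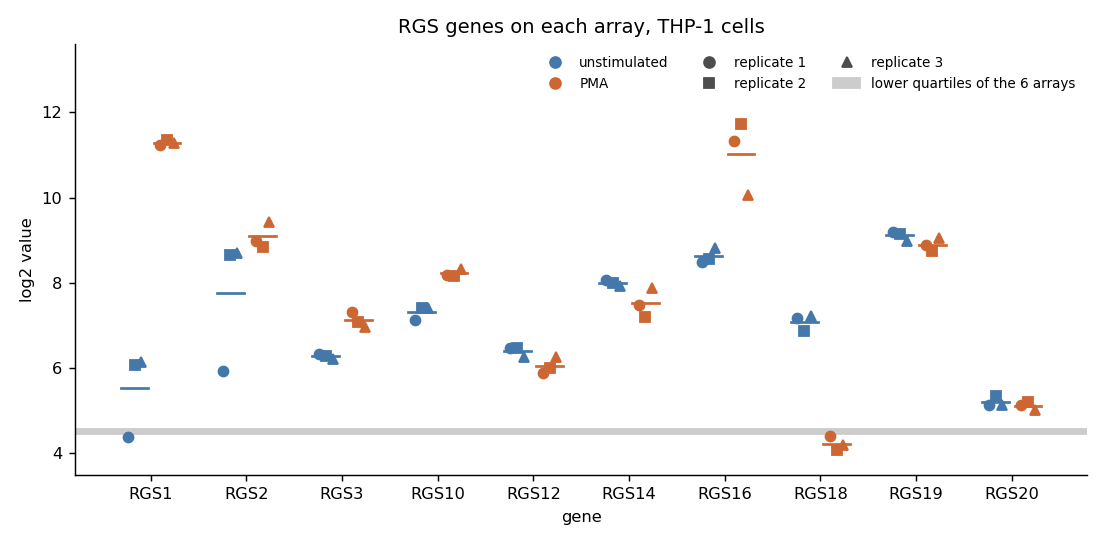
Log2 values (vertical axis) of the 10 RGS genes (horizontal axis) on each array, unstimulated in blue and PMA in orange, with a symbol per replicate and a bar at the group mean; the grey band spans the arrays' lower quartiles. Each gene is to be read within itself, since levels of different probe sets are not comparable. RGS1 and RGS16 lie higher on every PMA array, the 3 PMA values of RGS18 lie below the band, and unstimulated replicate 1 lies apart for RGS1 and RGS2.

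RGS1, an R4 protein that dampens chemokine receptor signalling in leukocytes, showed the largest change of the 10. Its log2 values were 4.38, 6.08 and 6.15 on unstimulated replicates 1, 2 and 3, and 11.23, 11.34 and 11.27 on the PMA arrays. The PMA arrays lay close together and far above the unstimulated arrays, whose replicate 1 was the lowest and dim. The mean went from 5.54 ± 1.00 to 11.28 ± 0.06 (SD, n = 3 arrays each). The log2 fold change was 5.74 ± 0.43 (SE, limma adjusted p = 7.54e-05). This is a 53.6-fold difference, and without unstimulated replicate 1 the log2 fold change was 5.17. In bulk RNA of this kind, more cells expressing a gene and more RNA per cell cannot be told apart.

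RGS16, an R4 protein that acts on Gi and Gq alpha subunits, rose as well. It was 8.49, 8.56 and 8.82 on the unstimulated arrays and 11.32, 11.72 and 10.05 on the PMA arrays. All PMA values were above all unstimulated values, with PMA replicate 3 well below the other PMA arrays. The log2 fold change was 2.41 ± 0.38 (SE, n = 3 each, limma adjusted p = 0.0027), or 5.32-fold, and 2.90 without PMA replicate 3. The call was lost when each gene's variance was estimated alone (gene-wise test, adjusted p = 0.0554).

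RGS3, an R4 gene with long and short protein forms, rose by less. It was 6.34, 6.29 and 6.21 on the unstimulated arrays and 7.32, 7.09 and 6.97 on the PMA arrays. The groups were apart and each was tight. On the log2 scale the change was 0.85 ± 0.11 (SE, n = 3 each, limma adjusted p = 0.0012), or 1.8-fold. A probe set spans the transcripts of a gene, so the forms of RGS3 were not separated.

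RGS18, an R4 gene of the haematopoietic lineage best known from platelets and megakaryocytes, moved the other way. It was 7.18, 6.87 and 7.22 on the unstimulated arrays and 4.40, 4.07 and 4.19 on the PMA arrays. The groups were widely separated, and all 3 PMA values were dim. On the log2 scale the change was −2.87 ± 0.13 (SE, n = 3 each, limma adjusted p = 8.72e-06), or 7.3-fold lower. Because the PMA values lie below the lower quartile of their arrays, the size of this fall is uncertain.

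RGS2, an R4 protein with a preference for the Gq alpha subunit, could not be called in either direction. It was 5.92, 8.65 and 8.70 on the unstimulated arrays and 8.99, 8.84 and 9.43 on the PMA arrays. Every PMA value was above every unstimulated value, but unstimulated replicates 2 and 3 lay just under the PMA arrays and replicate 1 lay far below. The log2 fold change was 1.33 ± 0.68 (SE, n = 3 each, limma adjusted p = 0.208), with a 95% interval from −0.25 to 2.90. Without unstimulated replicate 1 it was 0.41 ± 0.175 (limma adjusted p = 0.142).

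In the R12 subfamily 1 of 3 genes passed, where 13.2% of all genes rose and 13.2% fell. RGS10, a small R12 protein abundant in microglia and macrophages, was 7.12, 7.42 and 7.42 on the unstimulated arrays and 8.18, 8.15 and 8.32 on the PMA arrays. The groups were apart, and RGS10 rose with a log2 fold change of 0.90 ± 0.11 (SE, n = 3 each, limma adjusted p = 0.00101), or 1.86-fold. RGS14, a scaffold that carries Ras-binding domains and a GoLoco motif (which binds inactive Gi alpha) beside its RGS domain, was 8.074, 7.995 and 7.922 on the unstimulated arrays and 7.482, 7.205 and 7.888 on the PMA arrays. Its PMA replicate 3 value lay next to the unstimulated ones and the other PMA values lay lower. The log2 fold change was −0.47 ± 0.17 (SE, n = 3 each) and did not pass (limma adjusted p = 0.0759). RGS12, a relative with the same domains and an added PDZ domain, was 6.463, 6.461 and 6.265 on the unstimulated arrays and 5.875, 5.997 and 6.264 on the PMA arrays. Here PMA replicate 3 touched the lowest unstimulated value. The log2 fold change was −0.35 ± 0.12 (SE, n = 3 each) and did not pass either (limma adjusted p = 0.0767). Without PMA replicate 3 both were called lower, RGS14 at −0.65 (limma adjusted p = 0.00558) and RGS12 at −0.46 (limma adjusted p = 0.0202), so these calls turned on PMA replicate 3.

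In the RZ subfamily neither gene passed, where 13.2% of all genes rose and 13.2% fell. RGS19, which binds Gi alpha subunits and is also known as GAIP, was 9.19, 9.16 and 8.99 on the unstimulated arrays and 8.89, 8.75 and 9.04 on the PMA arrays, and the groups overlapped. Its log2 fold change was −0.22 ± 0.11 (SE, n = 3 each, limma adjusted p = 0.194), with a 95% interval from −0.48 to 0.03. RGS20, which acts on the Gz alpha subunit, was between 5.14 and 5.35 on the unstimulated arrays and between 5.01 and 5.20 on the PMA arrays. Its groups overlapped too, and the log2 fold change was −0.10 ± 0.10 (SE, n = 3 each, limma adjusted p = 0.56; 95% interval −0.33 to 0.14). Both intervals, which are not adjusted for the number of genes, lie well inside a 2-fold change in either direction. RGS20, however, was among the lowest 25% of genes by mean value. Differences near background come out smaller than they are, so its interval may not bound the change.

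The other 12 canonical RGS genes were read in the same fit, and 2 rose and 2 fell, where 13.2% of all genes rose and 13.2% fell. RGS13, an R4 protein known from germinal centre B cells and mast cells, was 4.43, 4.94 and 4.97 on the unstimulated arrays and 7.20, 6.50 and 8.29 on the PMA arrays. The groups were apart, the PMA arrays were spread, and unstimulated replicate 1 was dim. The change was 2.55 ± 0.40 on the log2 scale (SE, n = 3 each, limma adjusted p = 0.0028), and the call was lost by the gene-wise test (adjusted p = 0.0568). RGS4, an R4 gene best known from the brain and heart, was 4.76, 5.20 and 4.88 on the unstimulated arrays and 7.42, 6.48 and 7.60 on the PMA arrays. It rose by 2.22 ± 0.28 (SE, n = 3 each, limma adjusted p = 0.000997). RGS5, a marker of pericytes, fell (−0.60 ± 0.15, limma adjusted p = 0.0189), and this call was lost without any of unstimulated replicates 2 and 3 and PMA replicates 1 and 2 (adjusted p up to 0.0749) and by the gene-wise test (0.0985). RGS8 fell (−0.37 ± 0.09, limma adjusted p = 0.0208), a call lost without unstimulated replicate 3 or PMA replicate 2 (up to 0.0767). It was also lost when quantile normalization was repeated (−0.29, adjusted p = 0.0637) and when arrays were centred on their medians (−0.28, adjusted p = 0.0812).

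Set out by subfamily over all 22 genes, the calls lay mostly in R4. Of 10 R4 genes 5 rose and 3 fell, where 13.2% of all genes rose and 13.2% fell, and their median log2 fold change was 1.09. Among these calls, those of RGS5, RGS8, RGS13 and RGS16 were lost in some settings, as given above. Of 4 R7 genes, which are mainly neuronal and pair with the G beta protein GNB5, none passed in limma (1 at an unadjusted p of 0.05), and their log2 fold changes ran from −0.09 to 0.24. RGS6, the highest of them, was called higher when quantile normalization was repeated (0.31, adjusted p = 0.0289), with arrays centred on their medians (0.33, adjusted p = 0.0321) and with array quality weights (0.27, adjusted p = 0.0393). RGS7, also of R7, was dim on every array (3.34 to 3.55). RGS9 was dim on unstimulated replicates 1 and 3 and on PMA replicates 1 and 2. The log2 fold changes of RGS7 and RGS9 are therefore uncertain. None of the 3 RZ genes passed (0 at an unadjusted p of 0.05). Whether subfamilies differed from each other was not tested.

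**Figure D2:**
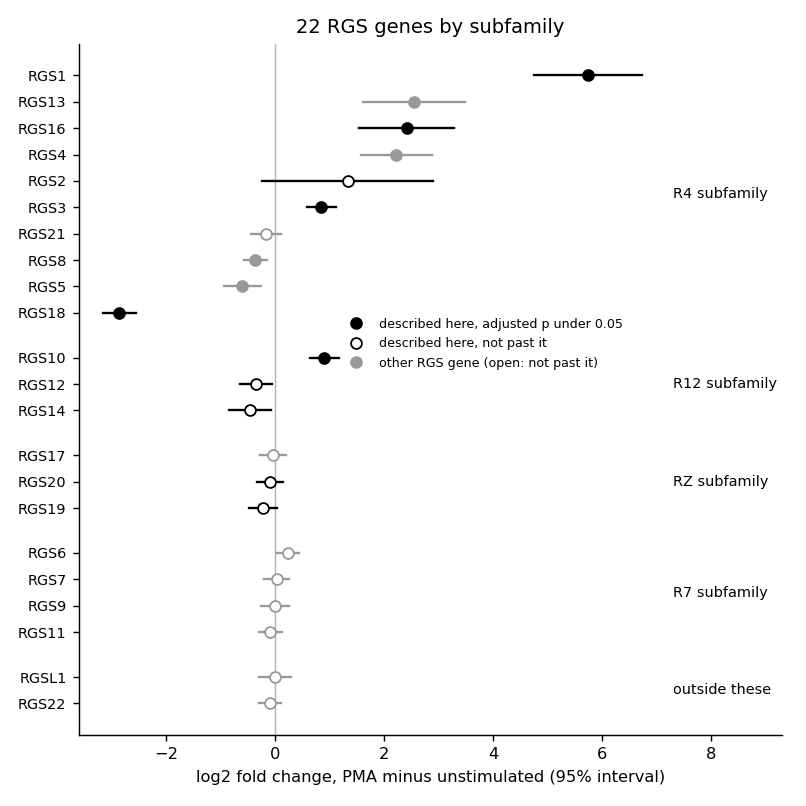
Log2 fold change, PMA minus unstimulated (horizontal axis), with its unadjusted 95% interval from the limma fit for 22 RGS genes (vertical axis) grouped by subfamily; black marks the 10 genes described, grey the other 12, and filled points passed an adjusted p of 0.05. The R4 genes spread from −2.87 (RGS18) to 5.74 (RGS1), while the R7 and RZ genes lie near 0 and the interval of RGS2 crosses 0. Of the R7 genes, RGS7 was dim on every array and RGS9 on some.

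Some of the R4 genes are neighbours on chromosome 1. In the current gene table, RGS18, RGS21, RGS1, RGS13 and RGS2 are consecutive protein-coding genes in that order, and RGS16 lies next to RGS8 elsewhere on the chromosome. Along this row the log2 fold changes were −2.87, −0.17, 5.74, 2.55 and 1.33. RGS1 and RGS13, which both rose, lie side by side, and RGS18, which fell, is separated from them by RGS21. RGS21, a gene described in taste cells, was dim on all 6 arrays (3.61 to 4.07) and did not pass (limma adjusted p = 0.379). The 250 bases before the annotated start of the genes that moved most, and of RGS2, are given because they differ in composition. The sequences are taken from RefSeq (GRCh38.p14) and printed along each gene's strand from 5′ to 3′, with CG dinucleotides, the sites of DNA methylation, in capitals.
RGS18, chr1:192158212-192158461, plus strand: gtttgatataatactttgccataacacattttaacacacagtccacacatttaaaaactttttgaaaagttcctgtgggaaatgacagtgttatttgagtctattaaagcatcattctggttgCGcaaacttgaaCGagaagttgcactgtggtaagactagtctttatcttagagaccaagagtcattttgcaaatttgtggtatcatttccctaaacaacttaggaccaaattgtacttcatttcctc
RGS1, chr1:192575523-192575772, plus strand: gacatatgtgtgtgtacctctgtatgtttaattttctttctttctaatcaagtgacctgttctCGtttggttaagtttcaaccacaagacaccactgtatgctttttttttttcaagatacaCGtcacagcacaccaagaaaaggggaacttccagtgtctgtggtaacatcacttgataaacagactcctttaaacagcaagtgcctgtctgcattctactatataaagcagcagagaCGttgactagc
RGS13, chr1:192635897-192636146, plus strand: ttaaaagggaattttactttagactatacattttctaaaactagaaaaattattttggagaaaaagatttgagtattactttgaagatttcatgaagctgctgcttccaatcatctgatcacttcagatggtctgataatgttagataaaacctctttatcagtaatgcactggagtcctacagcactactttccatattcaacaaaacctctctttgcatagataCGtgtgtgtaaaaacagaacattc
RGS2, chr1:192808789-192809038, plus strand: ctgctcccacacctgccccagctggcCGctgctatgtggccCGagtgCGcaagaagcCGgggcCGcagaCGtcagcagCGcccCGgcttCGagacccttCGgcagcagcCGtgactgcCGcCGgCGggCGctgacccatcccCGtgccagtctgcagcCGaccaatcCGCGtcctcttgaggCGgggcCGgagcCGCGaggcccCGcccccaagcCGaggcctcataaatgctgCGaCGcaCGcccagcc
RGS16, chr1:182604390-182604639, minus strand: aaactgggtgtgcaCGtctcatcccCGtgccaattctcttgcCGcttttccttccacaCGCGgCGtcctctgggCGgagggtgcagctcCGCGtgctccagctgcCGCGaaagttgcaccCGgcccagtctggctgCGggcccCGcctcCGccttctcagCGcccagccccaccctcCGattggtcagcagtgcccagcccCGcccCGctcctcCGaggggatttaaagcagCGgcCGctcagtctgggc

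These windows held 2 CG dinucleotides in RGS18, 3 in RGS1 and 1 in RGS13, against 28 in RGS2 and 22 in RGS16. The window of RGS21, which did not pass, held 1 (27.2% G and C), and those of RGS4 held 5, 2, 6 and 1. Windows of RGS10 and RGS3, which rose, covered both ends, with 3 and 26 in RGS10 and 1, 29, 9, 3 and 4 in RGS3. The median over 35116 such windows of 27305 genes was 11. Windows with as few as RGS13, RGS18 and RGS1 made up 14.7%, 22.9% and 29.3% of them, so low counts were common. The share of G and C was 34.8% in RGS18, 39.2% in RGS1 and 32% in RGS13, against 72.8% in RGS2 and 68.4% in RGS16, with a median of 58%. The windows were also searched on both strands for AP-1 motifs (TGACTCA or TGAGTCA, each the reverse complement of the other) and for the CRE motif (TGACGTCA), elements bound by factors that phorbol esters and cyclic AMP activate. None of 19 windows of 9 of the 10 genes held either motif, where 4.2% of all windows hold an AP-1 motif and 1.65% a CRE. RGS20 was left out of this search. The absence says only that these letters are not in these windows.

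Single arrays stood apart for some of the RGS genes. On unstimulated replicate 1, the log2 value of RGS2 minus the mean of the other unstimulated arrays was −2.76, which ranked 2 from the lowest among 18417 genes. For RGS1 this difference was −1.74, at rank 29, while RGS3, RGS12, RGS14, RGS18, RGS19 and RGS20 lay within 0.13 of the other arrays in either direction. Macrophage markers moved with RGS1 and RGS2: all 8 had their lowest unstimulated value on that array, against 35.8% of all genes, and their mean log2 level was 6.24 there and 7.20 and 7.23 on the others. The part of these markers in the RGS values was not tested. On PMA replicate 3, the difference for RGS16 from the other PMA arrays was −1.47, whereas RGS13 lay 1.43 above, RGS14 0.54 above, RGS2 0.52 above and RGS12 0.33 above. The 8 macrophage markers had a mean of 9.94 on PMA replicate 3, against 9.95 and 9.74 on PMA replicates 1 and 2. With both arrays left out, RGS1 was 5.17, RGS16 2.83, RGS10 0.75, RGS3 0.96 and RGS18 −2.81, all still past the threshold, and RGS2 was 0.24 (limma adjusted p = 0.137).

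**Figure D3:**
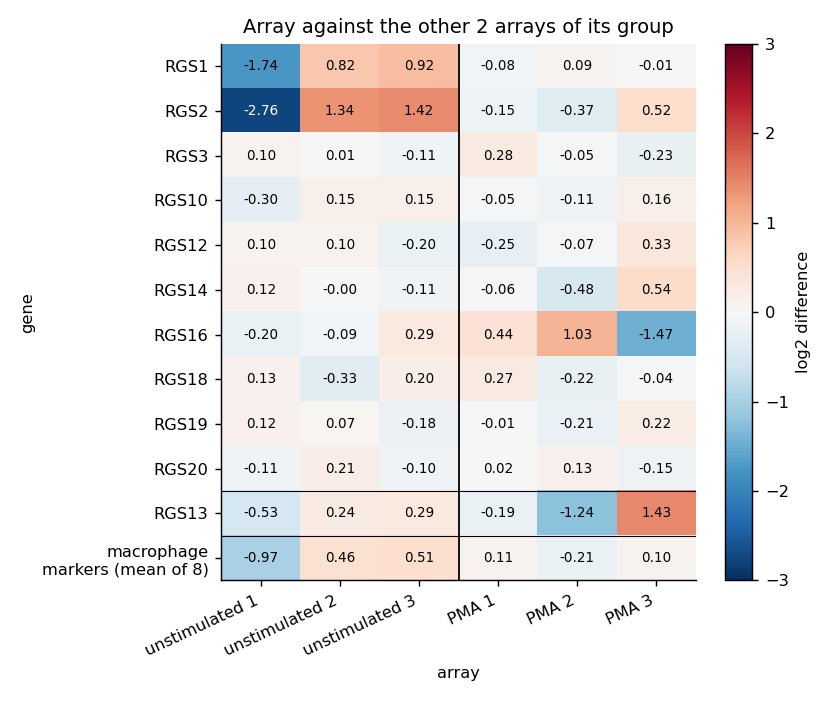
Difference on the log2 scale between each array (horizontal axis) and the mean of the other arrays of its group, for the 10 RGS genes, RGS13 and the mean of 8 macrophage markers (vertical axis), with the value printed in each cell. Unstimulated replicate 1 is low for RGS2 (−2.76), RGS1 (−1.74) and the markers, and PMA replicate 3 is low for RGS16 (−1.47) and high for RGS13 (1.43).

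The rest of the G protein pathway was read from 7 lists of genes by role, the other RGS genes among them, with 100 of 106 genes measured. Of these 100, 20 rose and 18 fell, where 13.2% of all genes rose and 13.2% fell, and their median log2 fold change was 0.03. The lists are small and their counts are to be read against the same shares. Among the 15 alpha subunits, which include classes other than Gi and Gq, 6 rose and 2 fell. GNA12 rose by 1.49 ± 0.09 (SE, n = 3 each, as for all that follow), and the Gq class members GNA15 (1.19 ± 0.09) and GNA11 (1.15 ± 0.15) also rose. GNA14 (−1.22 ± 0.14) and GNAQ (−0.63 ± 0.14), of the same Gq class, fell; the call of GNAQ was lost without unstimulated replicate 2, unstimulated replicate 3 or PMA replicate 1 (limma adjusted p up to 0.0588) and by the gene-wise test (0.082). The following members of the Gi class, common partners of RGS proteins, were named after their values were seen. GNAI1 (0.61 ± 0.13) and GNAZ (0.41 ± 0.13) rose, a call lost for GNAI1 without PMA replicate 1 (limma adjusted p = 0.0516) and for GNAZ without any of unstimulated replicates 2 and 3 and PMA replicates 2 and 3 (up to 0.157). GNAI2 (−0.09 ± 0.09) and GNAI3 (0.03 ± 0.13) did not pass (limma adjusted p = 0.549 and 0.905).

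Of 15 beta and gamma subunits measured, 2 rose and 2 fell. GNG11 was 4.95, 5.12 and 4.65 on the unstimulated arrays and 9.81, 9.95 and 8.72 on the PMA arrays, a rise of 4.59 ± 0.31, and GNG12 rose by 3.67 ± 0.11. GNG4 (−1.47 ± 0.16) and the R7 partner GNB5 (−0.83 ± 0.12) fell. Of 6 receptor kinases and arrestins, which silence the receptor as RGS proteins silence the G protein, 2 rose and 2 fell. GRK3 (−1.21 ± 0.11) and GRK2 (−0.98 ± 0.09) fell. GRK5 (0.69 ± 0.21), the gene next to RGS10 on chromosome 10, and the arrestin ARRB1 (0.47 ± 0.14) rose, and each lost its call without 5 of the 6 arrays in turn and by the gene-wise test (adjusted p = 0.171 and 0.153). GRK5 has 2 probe sets, and their mean gave 0.32 (limma adjusted p = 0.168). ARRB1 was also lost when quantile normalization was repeated (adjusted p = 0.0534), and both were lost when every probe set was tested (0.0618 and 0.0688).

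Of 16 other modulators and proteins with RGS-like domains, 3 rose and 1 fell. The sorting nexin SNX25 (1.75 ± 0.19) and the guanine nucleotide exchange factors ARHGEF12 (0.88 ± 0.11) and ARHGEF11 (0.62 ± 0.11) rose, and GPSM2, which binds inactive Gi alpha, fell (−0.55 ± 0.11). Of 17 effectors, 4 rose and 3 fell. The adenylyl cyclase ADCY8 was 5.09, 5.34 and 5.10 on the unstimulated arrays and 9.65, 9.50 and 9.94 on the PMA arrays, a rise of 4.52 ± 0.14. PIK3R5 (0.82 ± 0.15), a subunit of the G beta gamma-activated kinase, and ADCY3 (0.77 ± 0.13) rose. ADCY9 (−1.77 ± 0.17), ADCY7 (−1.15 ± 0.31) and ADCY4 (−0.60 ± 0.13) fell, and the call of ADCY7 was lost without any array other than PMA replicate 3 (limma adjusted p up to 0.105). By the gene-wise test ADCY7, ADCY4 and PIK3R5 were not called (adjusted p = 0.155, 0.0677 and 0.0545). Of 19 Gi-coupled receptors for chemoattractants and related ligands, 1 rose and 6 fell, with the anaphylatoxin receptor C5AR1 (3.82 ± 0.16) higher and the chemokine receptors CCR2 (−5.48 ± 0.22) and CXCR2 (−2.46 ± 0.13) lower. CCR2 was dim on PMA replicates 2 and 3, so the size of its fall is uncertain. Among the 6 that fell, CX3CR1, FPR2 and PTAFR each lost the call without 3 of the 6 arrays in turn (limma adjusted p up to 0.0912, 0.0694 and 0.0914).

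**Figure D4:**
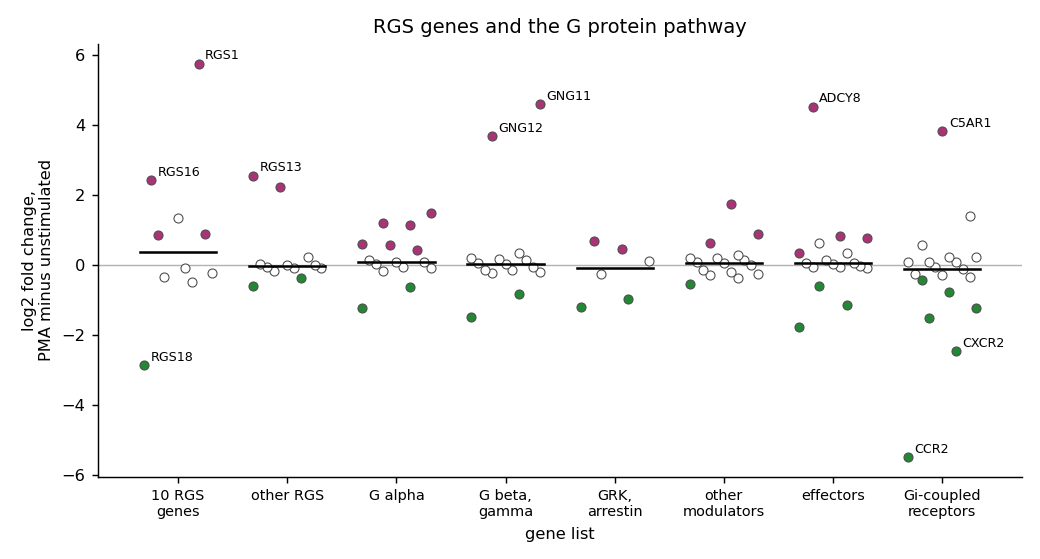
Log2 fold change, PMA minus unstimulated (vertical axis), of each measured gene in the RGS group and in 7 lists of the G protein pathway (horizontal axis), purple where higher and green where lower at an adjusted p of 0.05, open where not past it, with a black line at each list's median. The list medians lie near 0, between −0.13 and 0.38, and single genes such as RGS1, GNG11, ADCY8, C5AR1 and CCR2 lie far from them.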

How the data were processed

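Expression was read from the authors' deposited log2 values for 33297 probe sets on 6 arrays. The tools listed in the submitters' processing notes are RMA and Partek, without versions. The former normalizes arrays to similar distributions, and differences near background come out smaller than they are. Names came from the platform annotation (19460 with 1 symbol, 19429 of them matched by gene ID to the gene table of GRCh38.p14), 1754 carried several symbols and 12083 were unnamed. The probe set with the highest mean over the 6 arrays stood for a gene. Groups came from the sample titles.

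The 18417 genes were fitted in R 4.3.3 with limma 3.58.1, using lmFit and eBayes with group as the sole term. Calls used Benjamini-Hochberg adjusted p over all genes, at 0.05. The steps were tested on simulated data. No filter on dim genes was applied. The RGS genes and the lists were chosen with earlier results of these data known, so a list is described by its counts and median only. Named genes are all 10 RGS genes, other RGS genes that passed or adjoin them, and up to 3 genes in each direction per list. RGS6, RGS7, RGS9, FPR2, PTAFR, PDGFRA and the Gi class alpha genes given above were named outside this rule. Alternatives covered normalization, a dim-gene filter, probe set choice, variance model, threshold, a replicate block and leaving out arrays. Leaving out unstimulated replicate 1 and PMA replicate 3 together was added after seeing the data. Promoter windows were read with Python 3.11.15, and figures drawn with matplotlib 3.10.9. Of the 106 genes in the pathway lists, those without a probe set of their own were not analysed here, which left 100.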

Additional observations from a re-analysis of the deposited data

How the results depend on the processing

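The 4 RGS genes that rose stayed 4 under every alternative on normalization, filter, probe sets, single arrays and an adjusted p of 0.01, except the gene-wise test without shared variance (3, without RGS16) and a 2-fold minimum (2). The gene that fell, RGS18, stayed 1 except with array quality weights (3), without PMA replicate 3 (3) and without unstimulated replicate 1 and PMA replicate 3 together (3), where RGS12 and RGS14 joined it; leaving out arrays in turn gave 1 to 3. None of the 10 RGS genes changed sign. Pathway genes that rose went from 20 to 13 by the gene-wise test and 10 with a 2-fold minimum. Those that fell went from 18 to 10 by the gene-wise test, 9 with an adjusted p under 0.01, 9 with a 2-fold minimum, 11 to 19 with each array left out in turn and 23 without both arrays. All genes past the threshold went from 4854 to 2843 by the gene-wise test, 2824 at 0.01 and 1542 with a 2-fold minimum. With a replicate block the counts were 4 and 1 for RGS genes, 17 and 18 for the pathway and 4726 for all genes. Deviations of same-numbered arrays correlated at 0.177, −0.022 and 0.046 over genes, so the numbers were not taken to pair the arrays. The filter on the lowest 25% of genes removed RGS20. The causes of these shifts were not tested, and dim values limit the sizes given for RGS18, RGS1, RGS13 and CCR2. RGS4 (4.76 to 5.20) and GNG11 (4.65 to 5.12), among others, also started low on the unstimulated arrays, which may limit the sizes of their rises.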
